A study of Rattus norvegicus with 12 samples.

Results

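Chemokines and macrophage genes were followed through the fetal rat pituitary and hypothalamus with and without maternal TCDD exposure. The set was named by gene symbol: the chemokines Ccl2 and Ccl5, and the macrophage and microglia genes Cd163, Aif1, Lst1, Csf1r, Cx3cr1 and Cd68. Every probe whose platform annotation carries 1 of these 8 symbols was taken from the table of non-normalized intensities. That gave 1 probe each for 6 genes, of the 13337 genes with a named probe, and all 6 passed the filter on dim probes. Csf1r, the receptor for the growth factors Csf1 and Il34, and Cd68, a lysosomal glycoprotein of macrophages, matched no probe by symbol and were not analysed here. The genes were chosen by name with their measured TCDD and tissue differences on these arrays in view, so those differences are given as descriptions, with standard errors and no p-values.

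The samples came from male Wistar fetuses taken on gestational day 20. The dams of the exposed groups were given TCDD (2,3,7,8-tetrachlorodibenzo-p-dioxin) by mouth in corn oil on gestational day 15, at 1 µg/kg by the series text and 1 mg/kg by the sample labels, a conflict that no value here depends on. The unexposed groups are labelled only as controls, and no vehicle is named for them. There were 4 groups of 3 arrays: pituitary control (replicates 1, 2 and 3), pituitary TCDD (1, 2 and 5), hypothalamus control (1, 3 and 5) and hypothalamus TCDD (1, 3 and 4). The labels do not say that the replicates came from separate dams or litters, so errors and p-values reflect how far these samples scatter, and that scatter may be technical only. Whole tissues were measured, so each level is that of a mixture of cell types.

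Chemokines are small secreted proteins that guide leukocytes through G-protein-coupled receptors. Ccl2 draws monocytes through the receptor Ccr2, and Ccl5 draws T cells, monocytes and eosinophils. Macrophages live in the pituitary, and microglia are the resident macrophages of the hypothalamus. Cd163 is the scavenger receptor by which macrophages take up haptoglobin-bound haemoglobin. Aif1 encodes Iba1, an actin-binding protein used as a histological marker of microglia and macrophages, Lst1 encodes a small leukocyte protein from the major histocompatibility complex, and Cx3cr1 is the receptor for the neuronal chemokine fractalkine (Cx3cl1). TCDD binds the aryl hydrocarbon receptor (AhR), which then enters the nucleus and switches on its target genes.

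The arrays had raw median intensities of 92.5 to 120.8 units and detected 47.4% to 54.5% of the 22523 probes, where detected means a detection p below 0.05. Levels below are background-corrected, quantile-normalized log2 values. The lowest detected probe of an array lay at a log2 level of 5.42 to 5.74, so Ccl2, Ccl5, Cd163, Lst1 and Cx3cr1 were all dim, and Aif1 was well above background. Of the tested anterior pituitary genes 11 of 11 were higher in the control pituitary than in the control hypothalamus, but 5 of them passed the filter only through pituitary arrays and so had to be. Of 18 neuronal and hypothalamic genes 15 were lower, but Gad2, Nkx2-1, Hcrt and Oxt were on no pituitary array and so had to be. The AhR target Cyp1a1, a cytochrome P450, was not above background on any control pituitary array and was at least 57.4-fold higher with TCDD (limma adjusted p = 1.11e-11). Cyp1a1 passed the filter only through exposed pituitary arrays, which fixed the direction of this difference but not its size. The array of pituitary TCDD replicate 5 stood apart: on 223 named probes it exceeded the average of the other 5 pituitary arrays by more than 1 on the log2 scale, against 13 to 29 for each of those 5. The summed level of 18 neuronal markers was 33645 on it, against 9491 and 9599 on the other TCDD arrays and 10463 to 14872 on the controls. Values without it are given for each gene of the set, and for the pituitary list medians and list genes below that it moved by over 1.5 times. In the hypothalamus, control replicate 3 and TCDD replicate 3 exceeded the average of the other 5 by more than 1 on 46 and 54 named probes, against 5 to 9 for each of the remaining arrays. Their summed levels of 11 mesenchyme and bone markers were 10841 and 8629, against 3262 to 5373.

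Ccl2 was higher in the exposed pituitary, and it was the only measured gene of the set whose estimate there was above 0. Its log2 level was 6.15, 5.97 and 6.16 in pituitary controls 1, 2 and 3, and 6.90, 6.59 and 6.97 in TCDD replicates 1, 2 and 5. The groups did not overlap, and the probe was detected on all 6 arrays. The group means were 6.10 ± 0.11 and 6.82 ± 0.20 (SD, n = 3), a difference of 0.72 ± 0.12 (SE) on the log2 scale, or 1.65-fold. The raw intensities did not overlap either, at 124.1 to 152.4 units in controls and 179.2 to 207.5 units with TCDD. Replicate 5 held the highest Ccl2 level, and without it the difference was 0.64. In whole tissue, a change in the number of cells that make a transcript cannot be told apart from a change in the amount per cell, and this applies to every difference below.

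Ccl5 moved the other way. Its log2 level was 6.19, 6.12 and 6.19 in the pituitary controls and 5.76, 5.35 and 5.46 in TCDD replicates 1, 2 and 5. The control arrays lay within 0.07 log2 units of each other and above every exposed array, and TCDD replicate 2 was not detected. The difference was −0.64 ± 0.11 (SE, n = 3 per group), which is 1.56-fold lower with TCDD. Raw intensities were 132 to 154.2 units in controls and 102.5 to 112.9 units with TCDD, again without overlap, and the log2 difference was −0.60 without replicate 5.

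Cd163, the haemoglobin scavenger receptor, was lower in the exposed pituitary by about the same factor. Its log2 level was 6.75, 6.92 and 7.09 in controls 1, 2 and 3 and 6.44, 6.28 and 6.09 in TCDD replicates 1, 2 and 5. The lowest control lay above the highest exposed array, and all 6 arrays detected it. The means were 6.92 ± 0.17 and 6.27 ± 0.18 (SD, n = 3), a difference of −0.64 ± 0.11 (SE), 1.56-fold lower. Raw intensities were 176.9 to 234.6 units in controls and 138.8 to 156 units with TCDD. Replicate 5 held the lowest Cd163 level, and the difference was −0.55 without it.

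Lst1 was lower as well. Its log2 level was 6.36, 6.27 and 6.23 in controls and 5.60, 5.76 and 5.76 with TCDD. The groups did not overlap, and every pituitary array detected it. The difference was −0.57 ± 0.10 (SE, n = 3 per group), 1.49-fold lower, and −0.59 without replicate 5. Raw intensities were 140.4 to 156.6 units against 105.6 to 124.1 units.

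Aif1 and Cx3cr1 differed little. Aif1 had a log2 level of 11.38, 11.34 and 11.51 in pituitary controls and 11.17, 11.28 and 11.21 with TCDD. The normalized groups did not overlap, but the difference was only −0.19 ± 0.10 (SE, n = 3 per group), 1.14-fold lower and −0.18 without replicate 5. The raw intensities of Aif1 overlapped, at 2480.9 to 3350.3 units in controls and 2296.2 to 2771.7 units with TCDD. Cx3cr1 had a log2 level of 5.72, 5.63 and 5.74 in controls and 5.43, 5.68 and 5.33 with TCDD. These values are at the edge of detection, with 3 of 3 control and 1 of 3 exposed arrays detected, and they overlapped. The Cx3cr1 difference was −0.22 ± 0.11 (SE), and −0.14 without replicate 5.

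Promoters are shown for Cd163, which was lower with TCDD, and Cx3cr1, whose groups overlapped, so that the letters upstream of both can be set side by side. Each is the 250 bases before the gene's start in RefSeq's GRCr8 annotation, 5′ to 3′ along the gene. They lie at chr4:158770524-158770773 on the plus strand and chr8:128677067-128677316 on the minus strand. The set of promoter sequences at hand held an entry for 4 of the 8 genes. Capitals mark matches to a kappaB-like motif on either strand, spelled GGG, any 5 bases and CC.
Cd163: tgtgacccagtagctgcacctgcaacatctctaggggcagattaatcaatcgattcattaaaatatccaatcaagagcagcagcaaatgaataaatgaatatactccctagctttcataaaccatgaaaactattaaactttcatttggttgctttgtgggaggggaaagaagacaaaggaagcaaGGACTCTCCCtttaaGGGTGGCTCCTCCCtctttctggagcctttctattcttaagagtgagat
Cx3cr1: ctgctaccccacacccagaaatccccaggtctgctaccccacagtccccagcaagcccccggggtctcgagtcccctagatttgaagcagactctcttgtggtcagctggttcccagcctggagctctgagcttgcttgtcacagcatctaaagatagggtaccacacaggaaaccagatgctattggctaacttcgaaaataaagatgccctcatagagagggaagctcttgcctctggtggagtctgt
The Cd163 stretch held 3 such matches, the last 2 overlapping, and the Cx3cr1 stretch 0, where 42.3% of the 33469 promoters of this length held at least 1. The core of the AhR response element, GCGTG, was in 0 of these 2 stretches and in 25.9% of all promoters, and GAGGAA, the core bound by the myeloid factor PU.1, was in 0 of them and in 23.3% of all. The promoters of the genes with no named probe, not printed, held GCGTG 1 time and GAGGAA 2 times for Csf1r, and GAGGAA 1 time for Cd68, with 0 kappaB-like matches in either. Both strands were searched. These matches describe letters only.

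**Figure D1:**
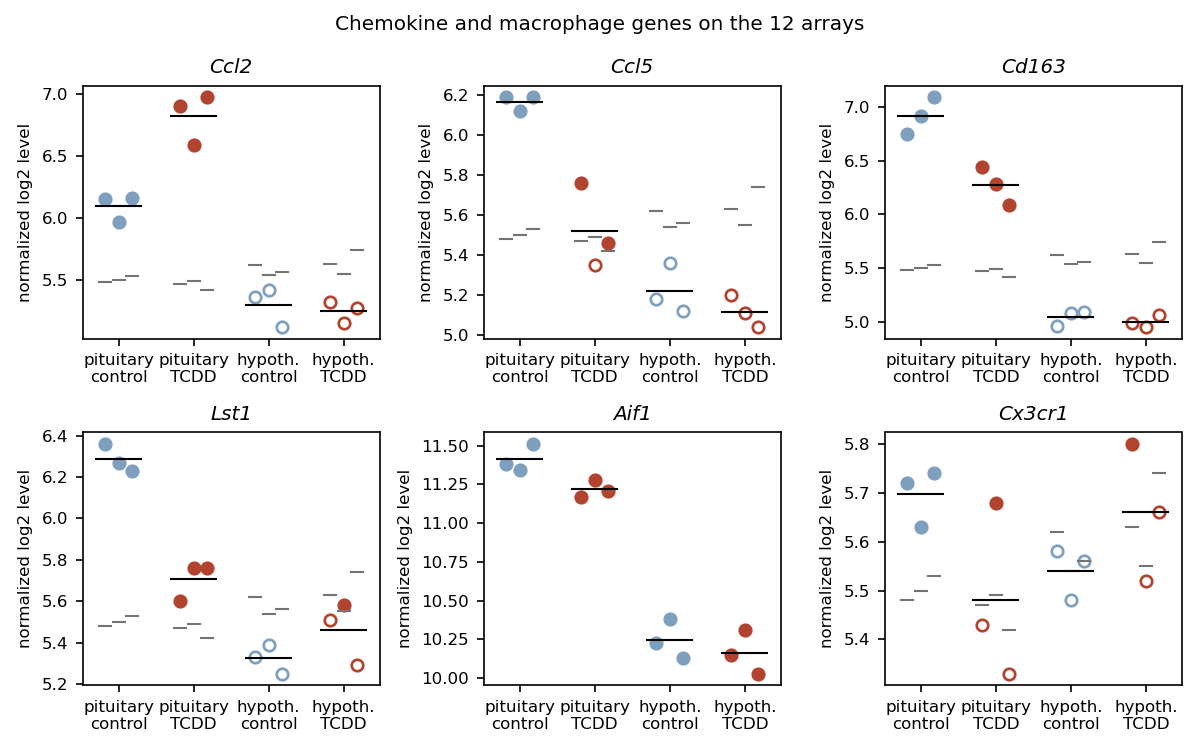
Normalized log2 level (vertical axes, each with its own range) of the 6 measured genes on the 12 arrays, by tissue and treatment, with hypoth. for hypothalamus. Filled points were detected, open points were not, long bars are group means of 3 arrays, and short grey bars mark the lowest detected probe of each array, not drawn for Aif1. In the pituitary Ccl2 lies higher with TCDD and Ccl5, Cd163 and Lst1 lie lower, without overlap, while in the hypothalamus Aif1 alone lies clear of background.

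By the threshold used across all probes (limma, Benjamini-Hochberg adjusted p below 0.05), 0.668% of the 13018 tested probes were called in the pituitary, 0.384% higher and 0.284% lower. Of the 6 genes, 4 were past that threshold, Ccl2 among the higher and Ccl5, Cd163 and Lst1 among the lower. Nothing is read from this count, because results of the same contrast were known when the genes were chosen. Groups did not overlap for 20% of all tested probes, 9.16% higher and 10.8% lower, so the lack of overlap seen for Ccl2, Ccl5, Cd163, Lst1 and Aif1 is common in itself. The place of the 4 genes relative to the threshold was unsteady. None was past it without pituitary control replicate 2, Cd163 alone was without control replicate 1, and Ccl2 alone was without control replicate 3. Ccl5 and Cd163 were without TCDD replicate 1, Ccl2 alone without TCDD replicate 2, and Lst1 alone without TCDD replicate 5. None was past it when the pituitary arrays were normalized and fitted without the hypothalamus arrays, and Ccl2 alone was without background correction. The signs held in all of these fits.

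**Figure D2:**
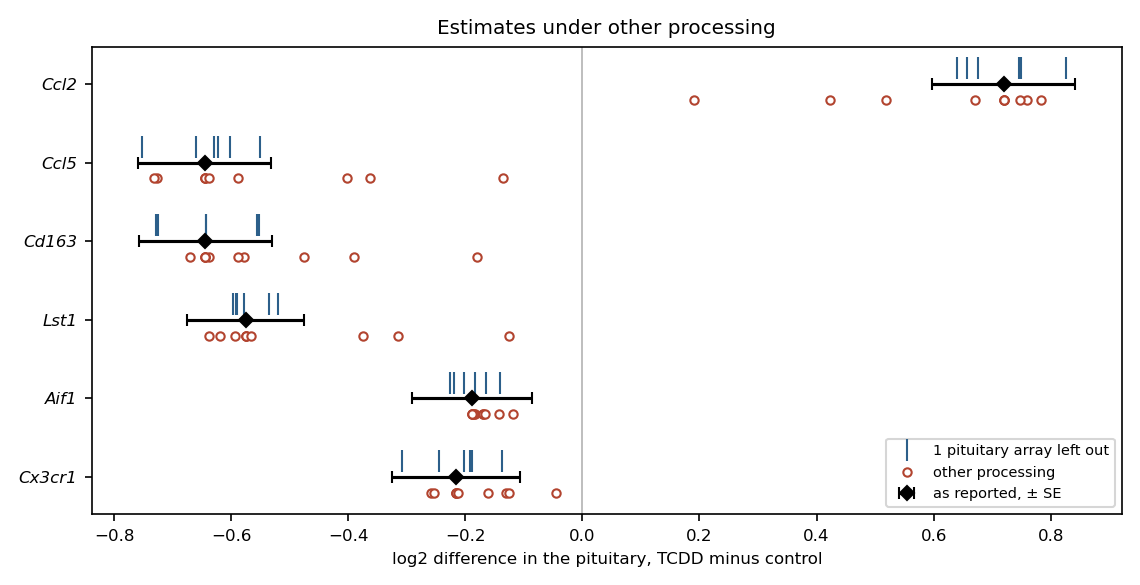
Log2 difference between TCDD and control pituitaries (horizontal axis) for each gene as reported (diamond, bar ± SE), with 1 pituitary array left out (blue ticks) and under other processing (open circles). No estimate crosses 0, and the circles nearest to 0 come from the authors' processed values, at 0.19 for Ccl2 and −0.18 for Cd163.

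In the hypothalamus the same genes gave little to compare. Ccl2, Ccl5 and Cd163 were detected on 0 of 6 hypothalamus arrays, at log2 levels of 5.12 to 5.42, 5.04 to 5.36 and 4.95 to 5.09, and no fold is given for them. Lst1 was detected on 0 of 3 control and 1 of 3 exposed arrays, at 5.33, 5.39 and 5.25 in controls 1, 3 and 5 and 5.51, 5.58 and 5.29 in TCDD replicates 1, 3 and 4, and the groups overlapped. Cx3cr1, likewise detected on 0 and 1 arrays, lay at 5.58, 5.48 and 5.56 in controls and 5.80, 5.52 and 5.66 with TCDD, also with overlap. Aif1, detected throughout, had a log2 level of 10.23, 10.38 and 10.13 in controls and 10.15, 10.31 and 10.03 with TCDD. Its groups overlapped, with a difference of −0.08 ± 0.10 (SE, n = 3 per group). The Aif1 difference in the pituitary minus that in the hypothalamus was −0.10 ± 0.14 on the log2 scale, less than its standard error, where 0.2% of all probes were called for such a difference. For the dim genes a difference of effects between the tissues is not given, since the hypothalamus levels were at or below background. Over all probes 0.023% were called in the hypothalamus, and none of the 6 genes was.

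Between tissues, Aif1 was higher in the control pituitary than in the control hypothalamus. Its mean was 11.41 ± 0.09 (SD, n = 3) in the pituitary and 10.25 ± 0.12 in the hypothalamus, a log2 difference of 1.16 ± 0.10 (SE), 2.24-fold. The other genes were not above background on any control hypothalamus array, so only bounds can be given: Cd163 was at least 2.54-fold higher in the pituitary, Lst1 at least 1.64-fold, Ccl5 at least 1.51-fold and Ccl2 at least 1.44-fold. Cx3cr1 lay at the edge of detection in both tissues, so no bound is given for it. It was the 1 gene of the 6 not past the threshold, where 69.5% of all probes were called. None of these 5 could have passed the filter without its pituitary arrays, since Ccl2, Ccl5 and Cd163 were detected on 0 hypothalamus arrays and Lst1 and Cx3cr1 on 1. The direction of the bounds is therefore tied to the filter, and nothing is read from it or from the count past the threshold. For Ccl2 the order of group levels was exposed pituitary, control pituitary and then both hypothalamus groups, which were not told apart. For Ccl5, Cd163 and Lst1 it was control pituitary, exposed pituitary and then the hypothalamus groups, with exposed pituitary and hypothalamus at the edge of detection for Ccl5. The last place of the hypothalamus groups in these orders is likewise tied to the filter, and nothing is read from it. For Aif1 both pituitary groups lay above both hypothalamus groups, and for Cx3cr1 no order can be read.

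The rest of the macrophage and chemokine system was read from lists of related genes. Of 28 tested macrophage and microglia genes outside the set, 0 passed the limma test in the exposed pituitary, with 1 higher and 1 lower at an unadjusted p below 0.05, where 11.5% of all probes were. Their median difference was −0.07 on the log2 scale, against −0.006 over all tested probes, and single genes ran from −0.76 to 0.54. Without TCDD replicate 5 the median was 0.002 and again 0 passed, with 0 higher and 1 lower at an unadjusted p below 0.05. The smallest p-values belonged to Trem2, a microglial lipid receptor, at −0.54 ± 0.17 (SE, limma adjusted p = 0.225) and Coro1a, a leukocyte actin regulator, at 0.54 ± 0.22 (limma adjusted p = 0.377), which was 0.21 ± 0.14 without TCDD replicate 5. The summed level of these 28 genes was 21397 to 23867 in pituitary controls and 20056 to 22580 with TCDD, with overlap. Of 15 tested chemokine ligands outside the set, 0 passed and 3 were lower at an unadjusted p below 0.05, with a limma median of −0.23, or −0.10 without TCDD replicate 5. Cxcl9, an interferon-induced ligand of Cxcr3, was at −0.42 ± 0.13 (limma adjusted p = 0.203) and Ccl20, the ligand of Ccr6, at −0.34 ± 0.14 (limma adjusted p = 0.365), or −0.19 ± 0.12 without TCDD replicate 5.

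Of 9 tested chemokine receptors, 0 passed the limma test in the pituitary, 3 were higher at an unadjusted p below 0.05, and the median was 0.06, or 0.10 without TCDD replicate 5. Cxcr4, the receptor of Cxcl12, was at 0.53 ± 0.16 (limma adjusted p = 0.204), and Ccrl2, a non-signalling chemerin receptor, at 0.42 ± 0.13 (limma adjusted p = 0.203). The receptors and ligands that pair with genes of the set, named here by role and after their values were seen, were also measured. Ccr2, the receptor of Ccl2, was at 0.06 ± 0.16, or 0.11 without TCDD replicate 5. Ccr1 and Ccr3, which both bind Ccl5, were at −0.16 ± 0.23 and −0.08 ± 0.12, the latter −0.02 without that array, and Cx3cl1, the ligand of Cx3cr1, at 0.31 ± 0.15. None of these 4 passed over all probes. The Csf1r ligands Csf1 and Il34 were at −0.08 ± 0.21 and −0.22 ± 0.17, and with Il3ra, an interleukin receptor subunit, at 0.19 ± 0.20 they made up a growth factor list in which 0 of 3 passed and 0 had an unadjusted p below 0.05. Without TCDD replicate 5 these 3 were at 0.01, −0.11 and 0.29. Of 15 inflammatory and NF-kB feedback genes 0 passed and 0 had an unadjusted p below 0.05, with a median of −0.01, or 0.07 without TCDD replicate 5. Cebpb, a transcription factor of the acute-phase response, was at −0.26 ± 0.14 (limma adjusted p = 0.513) and Stat3, the transducer of interleukin signals, at 0.21 ± 0.13 (limma adjusted p = 0.590), and these were −0.12 and 0.10 without TCDD replicate 5.

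In the hypothalamus, limma likewise passed 0 of 28 macrophage, 0 of 15 ligand, 0 of 9 receptor, 0 of 3 growth factor and 0 of 15 inflammatory genes. At an unadjusted p below 0.05 there were 1 higher and 2 lower macrophage genes, 1 higher and 1 lower receptor, 1 higher and 1 lower inflammatory gene, and 0 ligands and 0 growth factor genes, where 10.9% of all probes were. Among the ligands, Ccl27 was at −0.24 ± 0.13 (limma adjusted p = 0.552) and Cx3cl1 at 0.21 ± 0.15 (limma adjusted p = 0.641). The leading genes of the other lists were C1qb, a complement subunit made by microglia, at 0.35 ± 0.13 (limma adjusted p = 0.352), the scavenging chemokine receptor Ackr3 at 0.50 ± 0.14 (limma adjusted p = 0.287) and Cxcr3 at −0.51 ± 0.16 (limma adjusted p = 0.319). The interleukin gene Il18 was at −0.64 ± 0.19 (limma adjusted p = 0.295) and Tgfb1, an anti-inflammatory cytokine, at 0.54 ± 0.14 (limma adjusted p = 0.277). Fcgr1a, an immunoglobulin receptor and 1 of the 2 lower macrophage genes counted above, was below background in both groups, so its difference is not a measured one.

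Cd163 clears haemoglobin, so genes of haem and iron handling were read beside it. In the pituitary 0 of 10 passed the limma test, with 1 higher and 2 lower at an unadjusted p below 0.05. The iron exporter Slc40a1 was at 0.40 ± 0.12 (limma adjusted p = 0.193) and the biliverdin reductase Blvrb at −0.30 ± 0.09 (limma adjusted p = 0.215). The summed level of 9 erythroid genes, a measure of blood in the samples, was 86276 to 92992 in controls and 86498 to 89694 with TCDD, with overlap, and 0 of the 9 passed, with 2 lower at an unadjusted p below 0.05. Lst1 and Aif1 are close neighbours on chromosome 20 of the RefSeq annotation of GRCr8, with 1 protein-coding gene, Ncr3, between them. Of 14 other tested genes of that part of the histocompatibility complex, 0 passed the limma test, with 1 higher at an unadjusted p below 0.05 and a median of 0.13. The complement gene C2 was at 0.44 ± 0.18 (limma adjusted p = 0.360). Ccl2 and Ccl5 share chromosome 10, with 31 protein-coding genes between them.

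**Figure D3:**
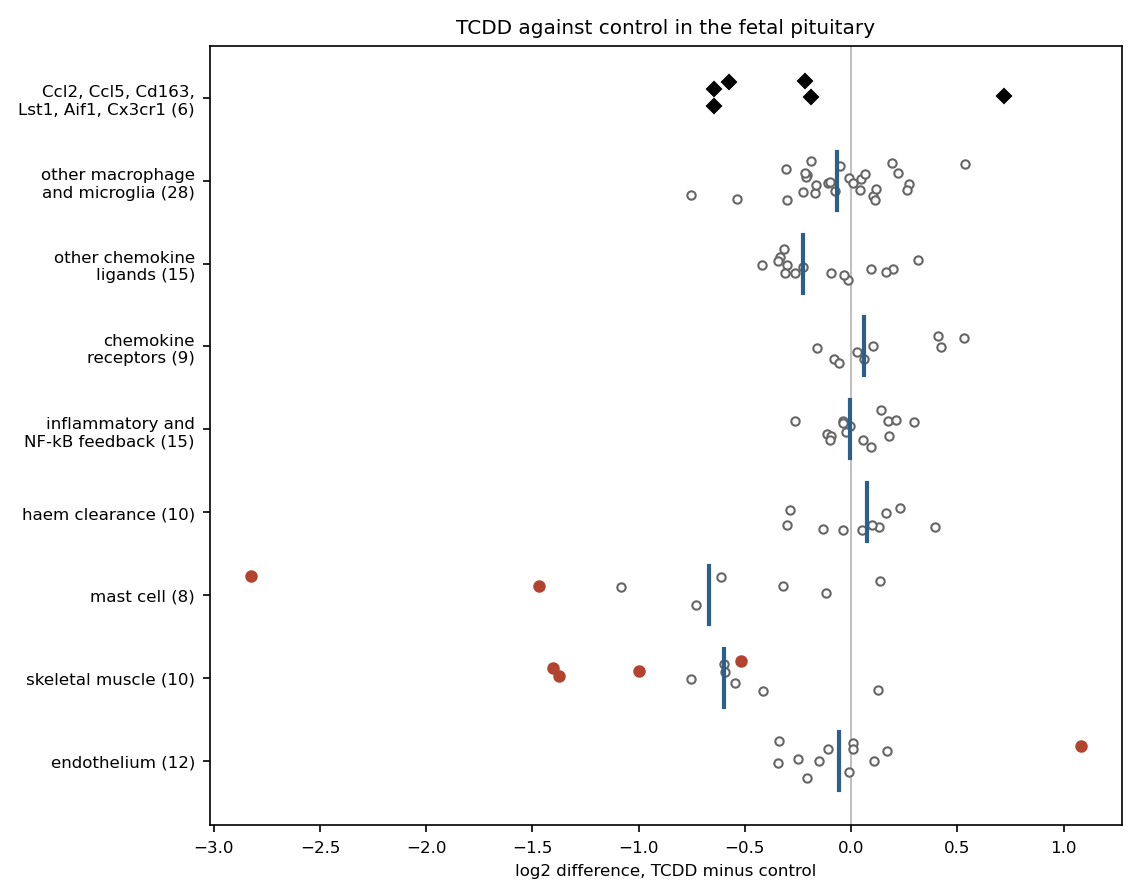
Log2 difference between TCDD and control pituitaries (horizontal axis) of the tested genes in each list, whose number is in brackets. Diamonds are the 6 measured genes of the set, filled red circles passed the limma test over all probes, open circles did not, and blue bars are list medians. The other macrophage, ligand, receptor, inflammatory and haem genes hold no filled circle, while 2 mast cell and 4 muscle genes lie lower and 1 endothelial gene higher. The mast cell gene Mcpt10 had to lie lower, since it passed the filter only through control pituitary arrays.

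Markers of other cell types that moved with treatment in the pituitary are given because the set was measured in whole tissue. Over all tested probes 0.384% were called higher and 0.284% lower. The lists here and in the next paragraph were chosen with earlier results of these data known, so nothing is read from their counts. Of 8 mast cell genes, 2 fell in the limma fit: the tryptase Tpsab1, at −2.82 ± 0.35 (SE, limma adjusted p = 0.00248), and the protease Mcpt10, at least 1.97-fold lower (limma adjusted p = 7.37e-05), which with Hdc was on no exposed array. Mcpt10 passed the filter only through control pituitary arrays and so had to be lower with TCDD. The summed level of the 8 genes was 1114 to 2251 in controls and 703 to 894 with TCDD, without overlap. Of 10 skeletal muscle genes, 4 fell: Ckm, Myl11, Tnnc2 and Tnnt3, at −1.40, −1.37, −0.998 and −0.52 (limma adjusted p = 0.0296, 0.00435, 0.0284 and 0.0468). That count was 0 with the tissues fitted separately, 2 with a replicate block, and 1 or 2 on leaving out any single array other than pituitary control replicate 1 or TCDD replicate 5, and Tnnt3 did not pass without that last array. The summed muscle level was 1409 to 2048 in controls and 840 to 1281 with TCDD. Of 12 endothelial genes 1 rose, Vwf, a clotting factor carrier, by 1.08 ± 0.20 (limma adjusted p = 0.0315), a call lost on leaving out any 1 pituitary array other than TCDD replicate 5, without hypothalamus control replicate 3 or TCDD replicate 1, and in 3 other fits. Whether these shifts have a part in the values of Ccl2, Ccl5, Cd163 or Lst1 was not tested.

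Blood, connective tissue and neuronal lists held no call. Of 5 lymphocyte genes 0 passed the limma test and 0 had an unadjusted p below 0.05. For 8 neutrophil and monocyte genes these counts were 0 and 1, with Prtn3, a neutrophil protease, at 0.50 ± 0.16 (limma adjusted p = 0.220). For 11 mesenchyme and bone genes they were 0 and 3, with Ibsp, a bone matrix protein, at −1.75 ± 0.36 (limma adjusted p = 0.0504), where the count was 1 in 7 of 22 alternatives, and for 18 neuronal genes 0 and 4. Of 11 anterior pituitary genes 4 fell, namely Fshb, Lhb, Gnrhr and Ghrhr, a count that was 1 with the tissues fitted separately. All 5 AhR targets rose, but Cyp1a1, Cyp1a2 and Ahrr passed the filter only through exposed pituitary arrays and so had to. The call of Cyp1b1, another cytochrome P450, was lost without pituitary control replicate 1 or 2 or TCDD replicate 1 or 2.

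Across tissues the macrophage list leaned towards the pituitary. Of the 28 genes, 20 were higher and 3 lower in control pituitary than in control hypothalamus (limma, where 69.5% of all probes were called, 33.7% higher and 35.9% lower), with a median of 0.78 against −0.05 over all probes. Lists of other cell types did so too: 10 of 11 mesenchyme and bone genes were higher, with a median of 3.88, as were 10 of 12 endothelial genes, with a median of 1.51, and 8 of 9 erythroid genes, with a median of 1.25. Lyve1, a hyaluronan receptor of resident macrophages and lymphatic vessels, was higher by 3.29 ± 0.37 (limma adjusted p = 4.55e-06), and the mannose receptor Mrc1 by 3.06 ± 0.27 (limma adjusted p = 4.95e-07). The oxidase subunit Cyba was higher by 2.68 ± 0.12 (limma adjusted p = 2.45e-09) and the complement gene C1qc by 2.58 ± 0.23 (limma adjusted p = 6.37e-07). Lower in the pituitary were Coro1a, at −2.12 ± 0.22 (limma adjusted p = 2.46e-06), Trem2, at −0.66 ± 0.17 (limma adjusted p = 0.00401), and Mpeg1, a macrophage perforin, at −0.43 ± 0.16 (limma adjusted p = 0.0329). Of the 20 higher genes, 3 were on no control hypothalamus array, and 2 of the 28 passed the filter only through pituitary arrays. Without hypothalamus control replicate 3, which stood apart, 20 were higher and 3 lower, with Lyve1 at 3.68 and Mrc1 at 3.39, and Mpeg1 lost its call (limma adjusted p = 0.0748).

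Chemokine genes split between the tissues. Of 15 ligands, 7 were higher in the pituitary and 3 lower. The filter fixed part of this split, since 5 of the 15 passed it only through pituitary arrays, and 3 of the 7 were on no control hypothalamus array. The highest were Cxcl12, which retains blood cell precursors, at 3.56 ± 0.46 (limma adjusted p = 1.58e-05), and the platelet chemokine Pf4 at 3.37 ± 0.34 (limma adjusted p = 1.81e-06). Cxcl16 was at 2.07 ± 0.25 (limma adjusted p = 1.13e-05), and Ccl20 was at least 1.69-fold higher. Lower were Ccl27, at −2.39 ± 0.13 (limma adjusted p = 1.01e-08), the neuronal Cx3cl1, at −2.09 ± 0.15 (limma adjusted p = 6.80e-08), and Ccl17, at least 1.46-fold. Ccl17 passed the filter only through hypothalamus arrays and so had to be lower in the pituitary. Of 9 receptors 3 were higher and 3 lower, but Ccrl2 passed the filter only through pituitary arrays and so had to be higher. Ccr1 was at 1.82 ± 0.23 and Ackr3 at 1.13 ± 0.14 (limma adjusted p = 1.41e-05 and 1.10e-05), Ccrl2 was at least 1.43-fold higher, and Ccr3, Ccr2 and Ccr7 were at −0.88, −0.86 and −0.40 (limma adjusted p = 2.72e-05, 3.12e-04 and 0.00860). Csf1 was higher by 1.59 ± 0.21 (limma adjusted p = 1.70e-05), Il34 at least 1.26-fold higher and Il3ra lower, at −0.84 ± 0.20 (limma adjusted p = 0.00199). Without hypothalamus control replicate 3 the counts of ligands and receptors were the same, with Cxcl12 at 3.89 and Pf4 at 3.60. This comparison shares the pituitary control arrays with the TCDD comparison.

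**Figure D4:**
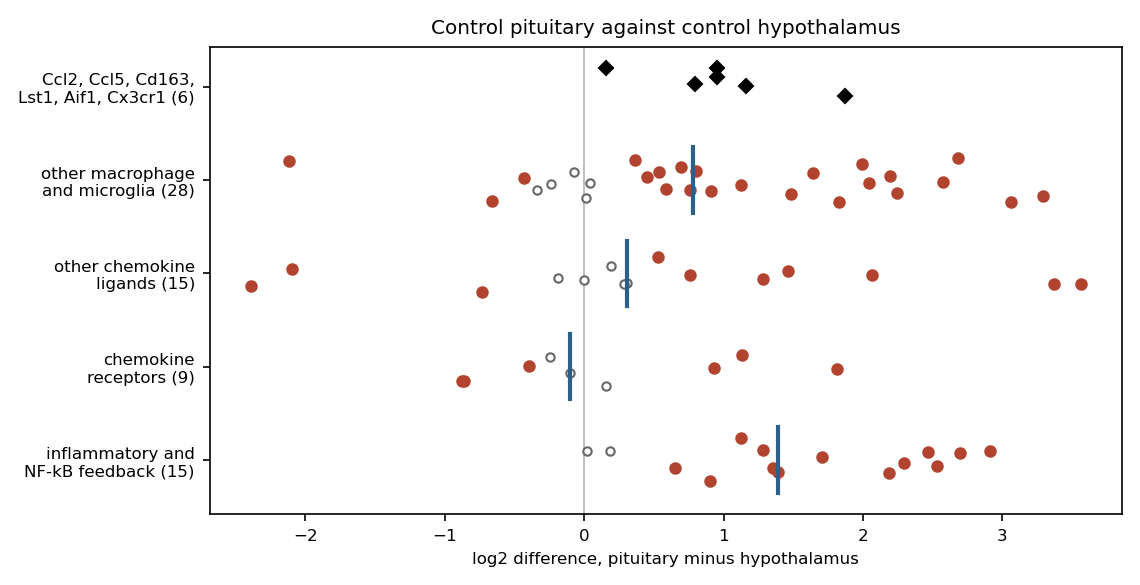
Log2 difference between control pituitary and control hypothalamus (horizontal axis) of the tested genes in each list, whose number is in brackets. Diamonds are the 6 measured genes of the set, 5 of which were on no control hypothalamus array, so that their fitted values are not fold changes. Filled red circles passed the limma test over all probes, open circles did not, and blue bars are list medians, at 0.78 for the macrophage genes and 1.39 for the inflammatory genes, of which 13 of 15 were higher in the pituitary, 3 of the 13 being on no control hypothalamus array.

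How the genes of the set varied together was described over the 12 arrays after each tissue's mean had been subtracted, so that treatment and array differences remained. Pearson's r was 0.89 between Ccl5 and Cd163, 0.78 between Ccl5 and Lst1, and −0.83 between Ccl2 and each of Cd163 and Lst1. All these points share the normalization, and the hypothalamus values of the dim genes are background. The genes most like Ccl2 were Hfe, an iron regulator (r = 0.955), the protein kinase A subunit Prkacb (0.933) and the AhR target Cyp1a2 (0.932). Those most like Cd163 were Mcpt10 (0.939), the serine protease inhibitor Serpina3c (0.936) and the small GTPase Rhod (0.923). Those most like Ccl5 were Oit3 (0.907), the metalloreductase Steap2 (0.906) and Serpina3c (0.903), and those most like Lst1 were the mitotic kinase Mastl (0.966), the mitotic ubiquitin-conjugating enzyme Ube2c (0.924) and Trim14 (0.924). Aif1 was most like Or8g20e (0.892), the mRNA 3′-end nuclease Cpsf3 (0.889) and Cnih4 (0.883), and Cx3cr1 most like the import factor Ipo9 (0.909), Derl3 (0.892) and the ribosome assembly gene Rrs1 (0.876). The largest of many correlations are high by selection, and no test is attached.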

How the data were processed

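Total RNA was labelled as biotinylated cRNA and hybridised to 12 arrays of the Illumina RatRef-12 BeadChip, per the labels' protocols. The authors deposited non-normalized bead intensities, 1 per probe and array, and per the file headers each came with a detection p-value. They also deposited a table of processed values on what looks like a log2 scale, with the same rank order within each array, whose transform no source used here gives, and which served as an alternative. Intensities of 22523 probes were background-corrected and quantile-normalized with neqc of limma 3.58.1 (R 4.3.3, offset 16), which pulls fold changes of dim probes towards 0. Probes detected on at least 3 arrays were tested, 13018, and 9505 were not. A limma fit of 4 group means to all 12 arrays gave two-sided moderated tests with 8 residual and 4.19 prior degrees of freedom, adjusted by Benjamini-Hochberg over all tested probes at 0.05, and was tested on simulated data. The number of arrays limits the precision.

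Symbols came from the platform annotation, which names 13793 probes. A gene with several probes was represented by the one with the highest mean. Where a probe was below background on every array of a group, folds are bounds against the lowest detected signal. The genes of the set and the 17 further lists (319 genes, 191 tested) were chosen with earlier results of these data known. Per list and TCDD comparison the rule named up to 4 genes past the threshold, or 2 of smallest p, and for the tissue comparison up to 4 per direction. For each gene of the set it named the 3 most correlated genes. Alternatives covered background, offset, scaling, filters, trend, array weights, separate fits, the authors' values, a replicate block and leaving out each array.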

Additional observations from a re-analysis of the deposited data

Results flagged for a closer look

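The difference of the TCDD effect between pituitary and hypothalamus passed limma's interaction test for 10 genes of the lists, and for none of the 6 genes of the set, where 0.2% of all probes were called. Within the set this outcome can be read for Aif1 alone, since the other genes were at or below background in the hypothalamus. On the log2 scale, pituitary minus hypothalamus, the difference of effects was 1.05 ± 0.16 (SE) for the iron exporter Slc40a1 (limma adjusted p = 0.0256), whose own effects were 0.40 and −0.65. The fitted term was −3.28 ± 0.50 for Tpsab1 (limma adjusted p = 0.0221), but no control hypothalamus array detected that gene, so its size is not a measured one. The difference was −0.91 ± 0.15 for Tnnt3 (limma adjusted p = 0.0275). For the luteinizing hormone subunit Lhb it was −1.86 ± 0.30 (limma adjusted p = 0.0270), and for the quinone reductase Nqo1 1.34 ± 0.16 (limma adjusted p = 0.00385). The other 5 genes were below background on all hypothalamus arrays, and Cyp1a1, Ahrr and Cyp1a2 on the control pituitary arrays too, so their fitted terms are neither folds nor bounds: Cyp1a1 at 6.28 (limma adjusted p = 9.42e-10), Ahrr at 4.02 (limma adjusted p = 1.80e-09), Cyp1a2 at 0.86 (limma adjusted p = 0.00874), Mcpt10 at −1.36 (limma adjusted p = 0.00546) and Fshb at −3.36 (limma adjusted p = 0.0127). For these 5 no difference of effects between the tissues can be read from the test.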

How the results depend on the processing

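All 6 pituitary estimates of the set kept their sign in 22 of 22 alternatives, and no result reversed. Their sizes depended on how dim signals were treated, by the construction of those settings. Ccl2 was 0.42 without background correction, 0.52 with an offset of 50 and 0.19 in the authors' processed values. In the same order Ccl5 was −0.36, −0.40 and −0.14, Cd163 −0.39, −0.48 and −0.18, and Lst1 −0.32, −0.37 and −0.12, and Cx3cr1 was −0.045 in the authors' values. Leaving out 1 array gave 0.64 to 0.83 for Ccl2, −0.75 to −0.55 for Ccl5, −0.73 to −0.55 for Cd163, −0.60 to −0.52 for Lst1, −0.23 to −0.14 for Aif1 and −0.31 to −0.14 for Cx3cr1. The 87 probes called in the pituitary became 231 with array weights, 218 with the authors' values (43.1% of them higher, against 57.5%), 26 with the tissues fitted separately, 40 with the replicate block and 43 to 93 on leaving out 1 array, with the lowest counts without pituitary control replicate 1 (51) or 2 (43) or TCDD replicate 1 (43). The 3 called in the hypothalamus became 0 without background correction, with separate fits, with the authors' values or with the block, 1 with an offset of 50 or median scaling, and 0 to 16 on leaving out 1 array, with 16 without hypothalamus control replicate 5, 4 without hypothalamus TCDD replicate 1, and 0 or 1 without any other. The 26 called for the difference of effects became 5 with the block and 10 to 32 on leaving out 1 array (10 without hypothalamus control replicate 3), and the 9053 tissue calls ran from 8505 to 9109. Median scaling moved the median of all probes by −0.10 in the hypothalamus and 0.13 for the difference of effects, and the authors' values moved that of the tissue comparison by 0.14, where 58.4% of calls were higher against 48.4%. Array weights passed 1 chemokine receptor and the authors' values 1 macrophage gene in the pituitary. The labels do not say whether same-numbered arrays are paired. Deviations of same-numbered arrays of a tissue correlated at −0.07 to 0.11. Between the tissues of a treatment r was 0.02 for controls 1 and 3 and −0.02 for TCDD replicate 1. With 3 arrays a group, these values do not settle whether the samples were paired. With the block 0 of the 6 genes were past the threshold. The cause of these shifts was not tested.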
